A study of Xenopus laevis with 15 samples.

Results

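The genes described here encode hormones of the gut and of the pancreatic islets: insulin (ins), proglucagon (gcg), somatostatin (sst), peptide YY (pyy), ghrelin (ghrl), cholecystokinin (cck), neurotensin (nts), gastric inhibitory polypeptide (gip), gastrin (gast) and amylin (iapp). The rule that picks their rows uses names alone. A row of the count table belonged to them where the authors' symbol, without its final .L or .S, was one of these names, which gave 9 of 37018 rows: ins.L, ins.S, gcg.L, sst.S, gip.L, ghrl, cck.L, cck.S and nts.S. The letters .L and .S mark the 2 related copies, called homeologs, that the frog Xenopus laevis holds of many genes. A further 9 rows carried one of these hormones only under RefSeq's symbol or in the authors' gene name, and were added after the files were read: gcg.2.L, gcg2, sst.1.L, gip.S, pyy.L, pyy.S, nts.L, gast.L and gast.S. RefSeq calls sst.S sst.1.S, the partner of sst.1.L. No row was found for iapp.

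Islet hormones are made by scattered endocrine cells of the pancreas, where beta cells release insulin after a rise in blood glucose and alpha cells release glucagon when it is low. Gut hormones are made by single enteroendocrine cells among the absorptive cells of the intestine and stomach, which sense food and signal to the pancreas, the gut muscle, the gall bladder and the brain. Somatostatin, cholecystokinin and neurotensin are also made by neurons, so their transcripts in a whole embryo come from the nervous system as well as from the gut. The hormones are cut from longer precursors by prohormone convertases and stored in dense granules.

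Whole embryos of Xenopus laevis were exposed to lead(II) nitrate for 96 h at 21 °C, from 48 h after fertilization (about Nieuwkoop and Faber stage 29), and were 6 days old when RNA was taken. The 3 groups of 5 libraries were water alone (control) and 2 lead levels, called lead 210 and lead 630 here because the labels and the protocol give these figures with different units. Each library came from a pool of 3 embryos and is named by its group and the letter A to E. The labels do not state if pools within a group had different parents or dishes, and a p-value here reflects only how pools varied.

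Libraries held 10824519 to 24656838 counts. Levels are in CPM, counts per 1e+06 counts, and the floor of 3 counts lay between 0.124 and 0.274 CPM. Genes were tested with edgeR's quasi-likelihood test on raw counts with Benjamini-Hochberg adjustment over 27060 genes, and called at an adjusted p under 0.05. Log2 fold changes are given ± SE, and mean levels ± SD (n = 5). Control B stood apart from the other 14 libraries in RNA of the exocrine pancreas. Results that rest on it are given with and without it unless stated otherwise. All comparisons with control share the same 5 control libraries. In RNA of whole embryos, fewer cells of a type and less RNA per cell cannot be told apart.

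Of the 9 rows carrying a member's name, 7 passed the filter on low counts, and ins.L and ins.S did not. None of the 7 was called at lead 630, where 2.28% of all genes tested were called, and none was called at lead 210, where 1.90% were. At an unadjusted p under 0.05 there was 1 of 7 at lead 630 and 2 of 7 at lead 210, where 12.9% of all genes tested passed at each level. DESeq2 and limma-voom called 0 of the 7 at either level. With the further copies, 15 of 18 rows were tested, gast.S being the other row under the filter. One of the 15, pyy.L, rose at both lead levels and 0 fell. Over all genes tested 1.98% were called higher and 0.303% lower at lead 630, and 1.76% higher and 0.144% lower at lead 210. The median log2 fold change of the 15 was 0.06 at lead 630 and -0.04 at lead 210, against -0.0052 and -0.0021 over all genes tested. At lead 630, 8 of the 15 estimates were positive, and at lead 210, 7 were.

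**Figure D1:**
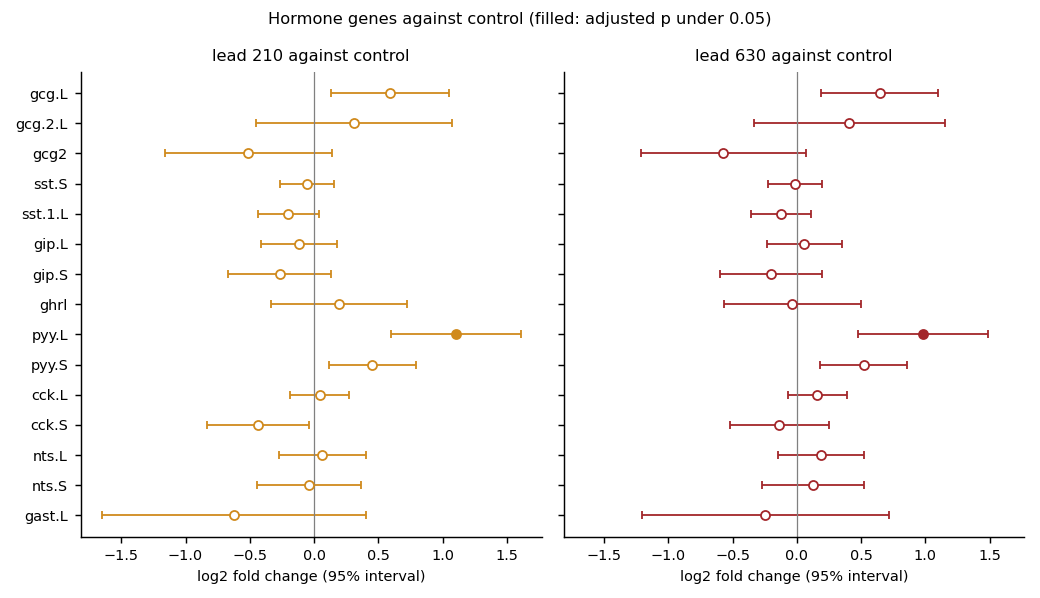
Log2 fold change against control (x axis) of the 15 hormone rows tested (y axis), at lead 210 on the left and lead 630 on the right. Points are estimates, bars their 95% intervals over 5 against 5 libraries, and filled points are called: pyy.L alone is filled, at 1.10 and 0.98, while the intervals of sst.S and cck.L lie within 0.39 of 0 on both sides.

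Peptide YY is released by enteroendocrine cells of the lower intestine after a meal and, in mammals, slows gut transit and lowers food intake. pyy.L (Entrez 108701982, "peptide YY-like" in the authors' table) stood in controls A to E at 3.03, 2.56, 3.27, 2.75 and 1.50 CPM. At lead 210 the 5 libraries gave 5.15, 4.02, 5.16, 7.18 and 6.57 CPM, and at lead 630 they gave 8.88, 4.07, 4.11, 4.66 and 4.84 CPM. All 10 lead libraries lay above all 5 controls, and lead 630 A stood apart above the rest of its group. The mean went from 2.62 ± 0.684 CPM in controls to 5.62 ± 1.26 CPM at lead 210 and 5.31 ± 2.02 CPM at lead 630, on 27 to 158 counts a library.

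At lead 210 pyy.L rose 2.15-fold (95% interval 1.51 to 3.05), a log2 fold change of 1.10 ± 0.24 with an adjusted p of 0.0178. At lead 630 it rose 1.98-fold (1.39 to 2.80), a log2 fold change of 0.98 ± 0.24 with an adjusted p of 0.0350. The 2 lead levels differed by a log2 fold change of -0.12 ± 0.23 (95% interval -0.59 to 0.36, edgeR adjusted p = 0.962). The authors' deposited table gives log2 fold changes of 1.10 and 0.99 for pyy.L, with adjusted p-values of 0.000627 and 0.00320. The call at lead 630 was near the threshold: it was lost with limma-voom (adjusted p = 0.0607), in a fit of the 2 groups alone (0.0666), and without control A, B, D or E or lead 630 A or E (0.0567 to 0.0813). Without lead 630 A the log2 fold change was 0.75. The call at lead 210 was lost only without lead 210 D (adjusted p = 0.0600), among the 10 left-out libraries.

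The other homeolog, pyy.S (Entrez 108702368), spanned 1.94 to 2.19 CPM in controls, 1.99 to 3.37 CPM at lead 210 and 2.39 to 3.45 CPM at lead 630. Every lead 630 library lay above every control, and at lead 210 only library C, at 1.99 CPM, fell within the control range. It was not called: its log2 fold change was 0.52 ± 0.16 at lead 630 (adjusted p = 0.122) and 0.45 ± 0.16 at lead 210 (adjusted p = 0.215). At lead 630, pyy.L and pyy.S were thus the 2 of 15 hormone rows whose libraries all lay above control, a pattern that 2.86% of all genes tested showed. At lead 210 pyy.L alone did, against 2.94% of all genes. No hormone row had all its lead libraries below control, as 0.983% of all genes did at lead 630 and 1.06% at lead 210.

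How the authors' counting split reads between the 2 related copies is not given, so the 2 homeologs were also summed. The sum does not depend on that split, but still depends on whether reads matching both copies were dropped or counted for each. Together pyy.L and pyy.S stood in controls A to E at 4.97, 4.54, 5.21, 4.96 and 3.64 CPM. The sum was 7.72, 7.37, 7.15, 9.99 and 9.67 CPM at lead 210, and 12.0, 7.50, 6.46, 7.39 and 7.78 CPM at lead 630. No lead library overlapped the controls, as was already so for pyy.L alone, which the sum contains. The share of all summed units with that pattern was not computed. In a fit with every pair of homeologs summed (20036 units, of which 2.58% were called at lead 630 and 2.12% at lead 210), the sum rose 1.74-fold at lead 630 (95% interval 1.37 to 2.20, adjusted p = 0.00875) and 1.80-fold at lead 210 (1.42 to 2.28, adjusted p = 0.00595). It was called without each of the 10 libraries in turn at both levels, with adjusted p up to 0.0282 and 0.0229.

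**Figure D2:**
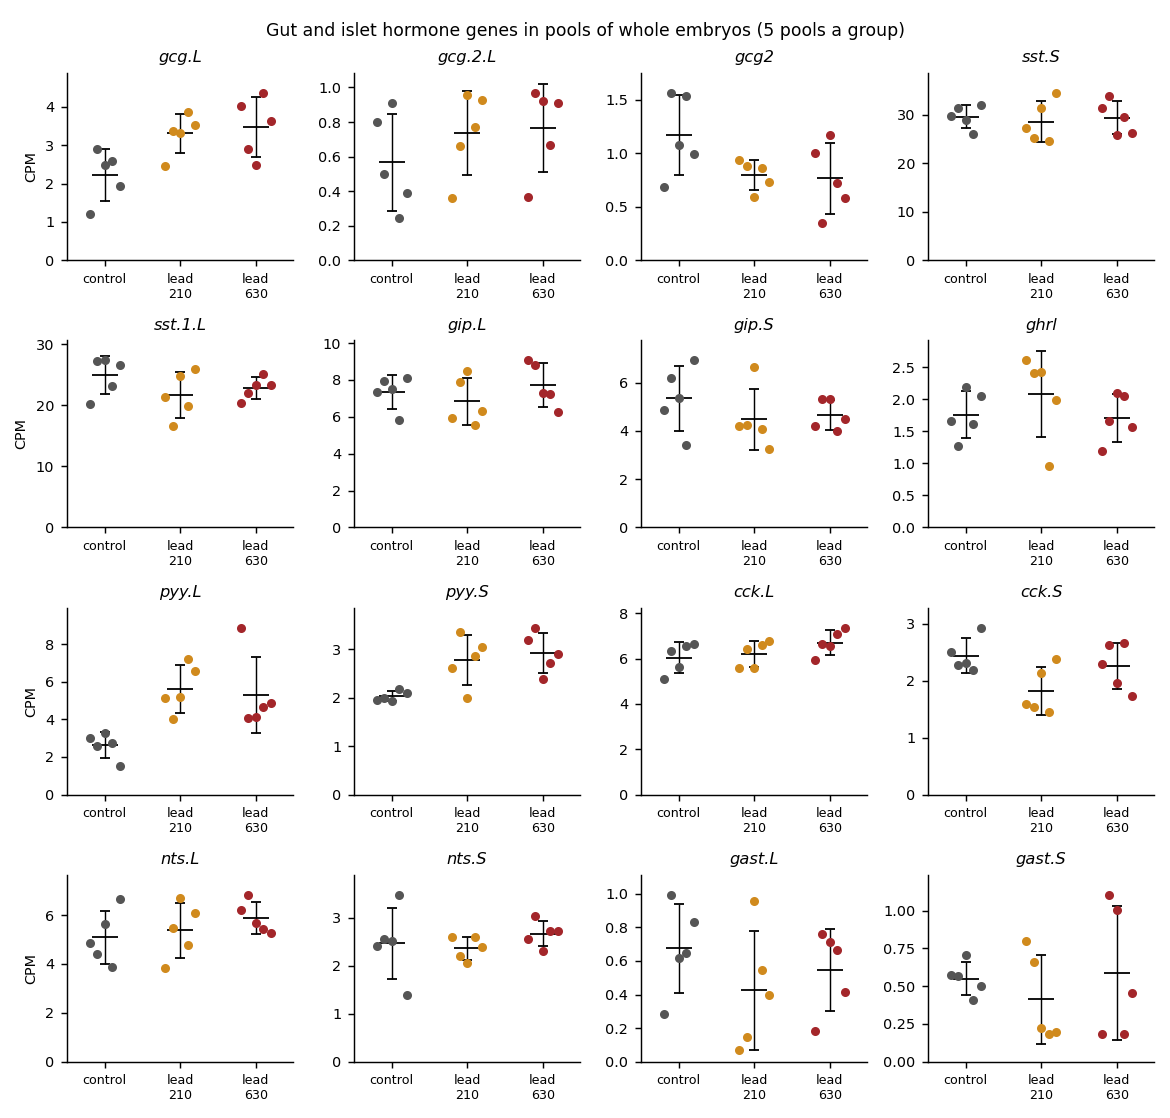
Level in CPM (y axis, from 0, a scale of its own in each panel) of the 16 hormone rows other than insulin in the 5 pools of each group (x axis). Points are libraries in the order A to E, horizontal lines the mean and bars 1 SD: the panels of pyy.L and of pyy.S at lead 630 show lead pools above all controls, and in the other panels lead pools and controls overlap.

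Markers of the absorptive cells of the intestine are given beside pyy because enteroendocrine cells lie among them. This list and those below were chosen with earlier results of these data known. Their shares beside those of all genes are therefore descriptive only. Of 22 enterocyte rows tested, 18 had a positive log2 fold change at lead 630 and 21 at lead 210. Their medians were 0.24 and 0.37, against -0.0052 and -0.0021 over all genes tested. Without control B the medians of the enterocyte rows were 0.22 and 0.30. At an unadjusted p under 0.05 there were 6 of 22 at lead 630 and 9 at lead 210, against 12.9% of all genes tested at each level. At lead 630 amn.L (amnionless, of the vitamin B12 uptake receptor) rose by 0.97 ± 0.18 (adjusted p = 0.00393). It was the only one of the 22 called, against 2.28% of all genes tested. At lead 210, 4 of the 22 were called higher, against 1.76% of all genes tested. They were amn.L (0.96 ± 0.18), the brush-border peptidases enpep.L (1.39 ± 0.26) and dpp4.L (1.14 ± 0.26), which in mammals trims peptide YY, and the lipoprotein gene apob.L (1.70 ± 0.36). Without control B, 2 of these 4 were called. The call of apob.L was lost without control A, B, D or E, and that of dpp4.L was lost without 8 of the 10 libraries in turn, all but control C and lead 210 E. The summed level of all 23 enterocyte rows was 1549 to 2438 CPM in controls, 2219 to 2834 CPM at lead 210 and 1863 to 2592 CPM at lead 630, and none of the 23 was at 0 in every library. In RNA of whole embryos the tissue that gave the counts of these rows is not known. The part of absorptive cells in the pyy result was not tested.

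All 6 rows tested from the stomach list had a negative log2 fold change at lead 210 and 5 of 6 at lead 630. The median of the list was -0.34 at lead 210 and -0.17 at lead 630, and -0.26 and -0.05 without control B. The medians over all genes tested were -0.0021 and -0.0052. At an unadjusted p under 0.05 there were 0 of 6 at lead 210 and 1 at lead 630, against 12.9% of all genes tested at each level. The 1 row called, at lead 630, where 2.28% of all genes tested were, was barx1.S (a transcription factor of the stomach wall). It fell by 0.55 ± 0.13 (adjusted p = 0.0256). That call was lost without control B, C or D or lead 630 A, B or E. For the stomach list too, the tissue that gave the counts in whole embryos is not known.

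Proglucagon is the precursor of glucagon and of glucagon-like peptides, made by alpha cells and by enteroendocrine L cells. The 3 proglucagon rows did not stand in one direction. gcg.L (Entrez 373686) had 1.20, 2.91, 2.48, 2.59 and 1.94 CPM in controls A to E. It had 2.46, 3.37, 3.32, 3.86 and 3.52 CPM at lead 210 and 4.03, 2.90, 2.47, 4.35 and 3.64 CPM at lead 630. The lowest control lay below every lead library, and the highest control lay within both lead groups.

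The log2 fold change of gcg.L was 0.64 ± 0.22 at lead 630 (95% interval 0.19 to 1.10, adjusted p = 0.165) and 0.59 ± 0.22 at lead 210 (0.13 to 1.05, adjusted p = 0.239), so it was not called although neither interval held 0. Over all alternatives tried its adjusted p at lead 630 ran from 0.106 to 0.365. gcg2 (proglucagon II) was at 1.17 ± 0.375 CPM in controls, 0.801 ± 0.141 CPM at lead 210 and 0.766 ± 0.331 CPM at lead 630, with log2 fold changes of -0.51 ± 0.31 and -0.57 ± 0.31 (adjusted p = 0.513 and 0.457). gcg.2.L ("glucagon-1-like" in the authors' table) was lower still in counts, 3 to 22 a library, with log2 fold changes of 0.31 ± 0.36 and 0.41 ± 0.35.

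Insulin transcripts were almost undetected. ins.S (Entrez 378696) had 0, 39, 2, 2 and 0 counts in controls A to E, 0 counts in all 5 lead 210 libraries, and 0, 1, 0, 2 and 16 counts in lead 630 A to E. ins.L (Entrez 378695) had 0, 7, 0, 0 and 0 counts in controls, 0, 1, 1, 0 and 3 at lead 210 and 0, 0, 3, 1 and 3 at lead 630. Of the 81 insulin counts in all, control B held 46 (56.8%), lead 630 E held 19, and the other 13 libraries together held 16. In 5 libraries there was no insulin count at all. Apart from control B and lead 630 E, no library passed the floor of 3 counts for either copy. A difference in insulin between groups could not be judged from counts this low.

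Control B was also the library richest in transcripts of digestive enzymes. The summed level of 32 exocrine pancreas rows in controls A to E was 11.4, 2655, 41.9, 17.5 and 13.9 CPM. It was 21.8 to 80.9 CPM at lead 210 and 18.8 to 90.7 CPM at lead 630. Control B held 82.3% of all counts of these rows and was the highest library for 20 of the 32: ctrc.L (chymotrypsin C) stood at 611 CPM there and at most 21.7 CPM elsewhere, and cpa1.L (carboxypeptidase A1) at 537 and 7.80 CPM. The second insulin library, lead 630 E, had an exocrine sum of 40.5 CPM, within the range of the remaining libraries. For 2 proglucagon rows control B was the highest control, next to control D: gcg.L was at 2.91 CPM against 2.59 CPM, and gcg2 at 1.56 CPM against 1.54 CPM. In control B sst.S was at 31.4 CPM and pyy.L at 2.56 CPM, both inside the range of the other controls.

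**Figure D3:**
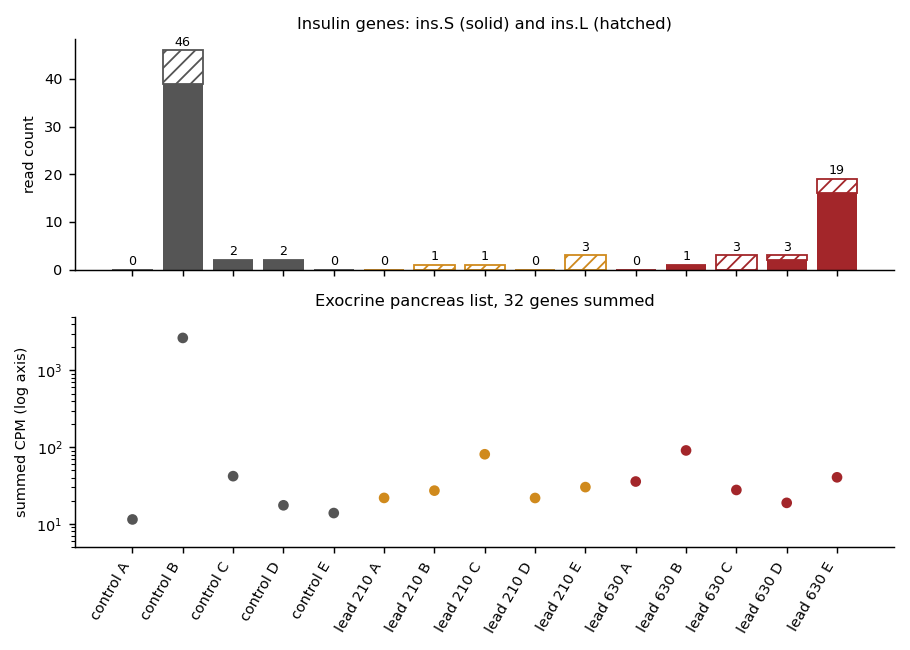
Read counts of ins.S and ins.L (upper panel, y axis from 0) and the summed level of 32 exocrine pancreas rows in CPM (lower panel, log axis) in each of the 15 libraries (x axis). Bars carry the sum of the 2 insulin copies: control B holds 46 counts and an exocrine sum of 2655 CPM, and lead 630 E holds 19 counts with an exocrine sum of 40.5 CPM.

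The authors' deposited table calls ins.S lower at lead 210, with a log2 fold change of -6.36 and an adjusted p of 0.0154, and at lead 630 gives -1.71 and an adjusted p of 0.762. A likelihood-ratio test in edgeR over the same 28950 genes gave -6.36 and an adjusted p of 0.0226 at lead 210. Without control B that test gave an adjusted p of 0.350, and the quasi-likelihood test with no filter on low counts gave 0.453 with all libraries and 0.633 without control B. At lead 630 the sign of ins.S turned without control B, from -1.72 to 1.54 in the likelihood-ratio test (adjusted p = 0.739 and 0.723). ins.L turned likewise, from -0.40 to 3.50 at lead 630 (adjusted p = 0.958 and 0.152) and from -0.43 to 3.31 at lead 210 (adjusted p = 0.940 and 0.230). With every lead 210 library at 0 for ins.S, and every control but B at 0 for ins.L, the size of these fitted changes depends on the prior count and is no measure of the difference.

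The genes most like ins.S over the 15 libraries, on log2 CPM with group means removed, were sycn.L (syncollin, a protein of zymogen granules; Pearson r = 0.88), phkg1.L (0.86) and fbxl14.L (0.86). sycn.L stood at 33.7 CPM in control B and at 5.66 to 9.55 CPM in the other 14 libraries, and without control B its r with ins.S was 0.51, that of phkg1.L 0.77 and that of fbxl14.L 0.59. ins.S was at 0 in 9 of the 15 libraries, so these values rest on few counts. Those most like gcg.L were mrpl2.L (r = 0.88), fktn.S (0.85) and prpf39.1.L (0.84). Those most like pyy.L, a row added after its values were seen, were tm2d2.L (0.89), tmem260.L (0.82) and spred1.S (0.81). Without control B the r of these 6 genes with gcg.L or pyy.L was 0.81 to 0.90. These are the highest of about 19980 correlations over libraries that share their depth and pool.

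Somatostatin restrains the release of insulin, glucagon and many gut hormones, and is also made by neurons. sst.S (Entrez 398676) spanned 26.0 to 31.9 CPM in controls, 24.6 to 34.4 CPM at lead 210 and 25.9 to 33.8 CPM at lead 630. The groups overlapped throughout, and the log2 fold changes were -0.05 ± 0.10 at lead 210 and -0.01 ± 0.10 at lead 630 (95% interval -0.22 to 0.19). Its partner sst.1.L (Entrez 399212) had 24.9 ± 3.11 CPM in controls, 21.7 ± 3.82 CPM at lead 210 and 22.8 ± 1.78 CPM at lead 630, with log2 fold changes of -0.20 ± 0.11 and -0.13 ± 0.11. Neither copy was called. With at least 222 counts in every library these were the most deeply counted hormone rows, and the interval of sst.S at lead 630 holds no change beyond 0.22 on the log2 scale.

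Gastric inhibitory polypeptide is released by K cells of the upper intestine and, in mammals, raises insulin release after a meal. gip.L spanned 5.83 to 8.09 CPM in controls, 5.54 to 8.48 CPM at lead 210 and 6.25 to 9.06 CPM at lead 630, and gip.S spanned 3.40 to 6.93, 3.25 to 6.64 and 3.99 to 5.32 CPM. Both overlapped between groups and neither was called, with log2 fold changes of 0.06 ± 0.14 and -0.20 ± 0.19 at lead 630 and -0.12 ± 0.14 and -0.27 ± 0.19 at lead 210. Ghrelin, a stomach hormone that in mammals stimulates appetite and growth hormone release, had a single row. ghrl spanned 1.28 to 2.19 CPM in controls, 0.954 to 2.61 CPM at lead 210 and 1.19 to 2.10 CPM at lead 630. Its log2 fold changes of 0.19 ± 0.25 and -0.04 ± 0.25 were not called, and the interval at lead 630 ran from -0.57 to 0.50.

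Cholecystokinin empties the gall bladder, drives secretion of pancreatic enzymes and is also a brain neuropeptide. cck.L spanned 5.09 to 6.65 CPM in controls, 5.58 to 6.77 CPM at lead 210 and 5.95 to 7.37 CPM at lead 630. cck.S had 2.52, 2.27, 2.32, 2.19 and 2.94 CPM in controls A to E and 1.59, 1.54, 2.14, 1.45 and 2.39 CPM at lead 210. Of those 5 lead 210 libraries, E alone lay inside the control range and the others below it. The log2 fold change of cck.S there was -0.43 ± 0.19 (unadjusted p = 0.0321, edgeR adjusted p = 0.328), and at lead 630 it was -0.14 ± 0.18, so it was not called at either level. With the 2 copies summed it was -0.09 at lead 210 (edgeR adjusted p = 0.745).

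Gastrin, which in mammals stimulates acid secretion, is a close relative of cholecystokinin, and the authors name its rows "gastrin/cholecystokinin-like peptide". gast.L had 1 to 17 counts a library and gast.S 2 to 24, so both lay near the floor. gast.L was at 0.676 ± 0.265 CPM in controls, 0.424 ± 0.354 CPM at lead 210 and 0.547 ± 0.243 CPM at lead 630, with log2 fold changes of -0.62 ± 0.49 and -0.25 ± 0.46. The interval at lead 210 ran from -1.65 to 0.41. Neurotensin, a peptide of N cells of the lower intestine and of neurons, was given by nts.L at 3.89 to 6.65 CPM in controls, 3.84 to 6.71 CPM at lead 210 and 5.26 to 6.83 CPM at lead 630. nts.S spanned 1.39 to 3.48, 2.06 to 2.61 and 2.30 to 3.04 CPM. Neither was called: at lead 630 the log2 fold changes were 0.19 ± 0.16 for nts.L and 0.13 ± 0.19 for nts.S, and at lead 210 they were 0.07 ± 0.16 and -0.04 ± 0.19.

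For 5 hormones both homeologs had at least 3 counts in every library, and the log2 ratio of .L to .S counts within a library does not depend on library scaling. The ratio also carries the unknown lengths of both transcripts, so it was compared between libraries and not read as a level. For cck it was 1.56 ± 0.35 (SD over 15 libraries), for nts 1.13 ± 0.48, for pyy 0.71 ± 0.52, for gip 0.61 ± 0.26 and for sst.1 -0.34 ± 0.19. For nts it ran from 0.16 in control D to 2.26 in control E, the widest range of the 5. For pyy the mean was 0.32 ± 0.49 in controls, 1.01 ± 0.45 at lead 210 and 0.80 ± 0.44 at lead 630.

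Among 15 exact two-sided permutation tests of group means, in which 5 against 5 libraries can reach p = 0.00794 at best, the lowest p was 0.0397, for cck at lead 210 against control (a difference of 0.48, exact permutation test). The pyy ratio at lead 210 followed with an exact permutation p of 0.0556 (a difference of 0.69). None passed after adjustment over the 15 tests, where the lowest adjusted p was 0.417. A single pair at the lowest p that this exact permutation test can reach would not have passed that adjustment on its own. These tests therefore cannot decide whether pyy.L and pyy.S differed in response.

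**Figure D4:**
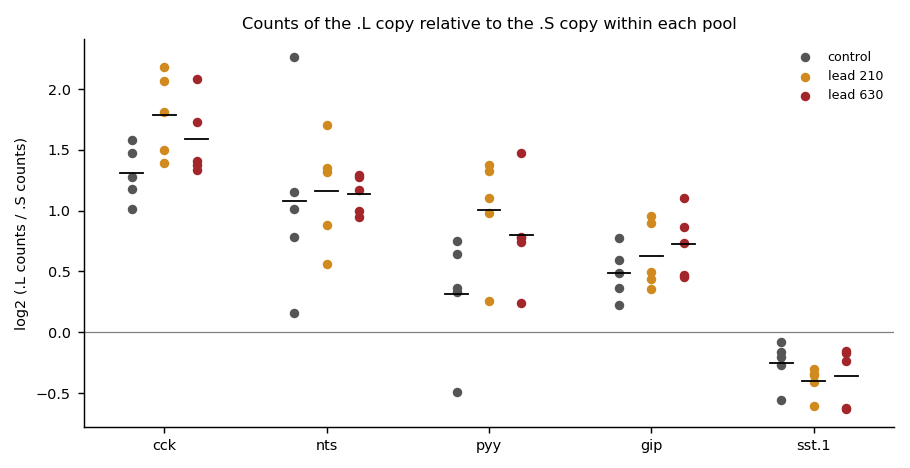
Log2 ratio of .L to .S counts within each pool (y axis) for the 5 hormone pairs with at least 3 counts of both copies in every library (x axis), by group. Points are libraries and lines group means: all 15 points of cck, nts and gip lie above 0 and all 15 of sst.1 below it, while for pyy 14 lie above and control E lies at -0.49.

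Lead 630 against lead 210 called 0 of the 15 hormone rows with edgeR's quasi-likelihood test, 0 at an unadjusted p under 0.05, and 0 with DESeq2 or limma-voom. Over all genes tested this comparison called 0%, and 4.66% had an unadjusted p under 0.05. The estimates ran from -0.23 for ghrl to 0.38 for gast.L, and 12 of the 15 were positive. Every row overlapped between the lead levels, while 0.37% of all genes tested lay wholly above and 0.281% wholly below.

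The genes that process and store these hormones did not pass the test. Of 21 rows of convertases and granule proteins (such as pcsk1, pcsk2, cpe, chga and scg2) 0 were called at lead 630 or lead 210 by edgeR, DESeq2 or limma-voom, with 1 and 0 at an unadjusted p under 0.05, the cut that 12.9% of all genes tested passed at each level. At lead 630, 17 of the 21 estimates were positive with a median of 0.04, and at lead 210, 4 were with a median of -0.07. Of 24 rows of islet and enteroendocrine transcription factors, 0 were called at either level by these 3 tools, with 2 at lead 630 and 4 at lead 210 at an unadjusted p under 0.05, against the same 12.9%. The rows under that cut all had negative estimates. Of the 24 estimates, 10 were positive at lead 630 with a median of -0.04, and 9 at lead 210 with a median of -0.06. Of 12 rows of other gut and pancreas hormones, 0 were called and 0 had an unadjusted p under 0.05 at either level.

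Of 33 rows of receptors for the hormones, 0 were called by any of the 3 tools, with 1 at lead 630 and 2 at lead 210 at an unadjusted p under 0.05, shares below the 12.9% of all genes. The one at lead 630 was npy5r.S, a receptor of the neuropeptide Y and peptide YY family, at 0.63 ± 0.19 (adjusted p = 0.117). Those at lead 210 were gcgr.L, the glucagon receptor, at 0.32 ± 0.15, and the somatostatin receptor sstr1.L at -0.31 ± 0.13. These 3 were named after their values were seen.

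Because somatostatin, cholecystokinin and neurotensin are also neuronal, 2 lists of the nervous system are given beside them. Of 24 brain neuropeptide rows and 16 neuronal rows, 0 were called at either level by edgeR, DESeq2 or limma-voom, with 2 and 2 neuropeptide rows and 1 and 5 neuronal rows at an unadjusted p under 0.05 at lead 630 and lead 210, against 12.9% of all genes at each level. The neuronal rows had a median log2 fold change of -0.05 at lead 630 and -0.15 at lead 210, where 1 of 16 was positive. Their summed level was 1921 to 2284 CPM in controls, 1689 to 2122 CPM at lead 210 and 1825 to 2294 CPM at lead 630. In each group the neuronal sums of libraries A and B lay below those of D and E. The part of neurons in the values of these hormones was not tested.

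Of 7 rows tested from a list of beta cell glucose sensing and secretion, 2 were called higher at both levels and 0 lower. Over all genes tested 1.98% were called higher at lead 630 and 1.76% at lead 210. At an unadjusted p under 0.05 there were 4 of 7 at lead 630 and 3 at lead 210, against 12.9% of all genes at each level. The list's median over the 7 rows was 0.09 (log2) at either level, with 5 of 7 estimates positive at lead 630 and 4 at lead 210. gck.L, glucokinase, the glucose sensor of beta cells and a main enzyme of glucose uptake in liver, went from 11.5 ± 1.70 CPM in controls to 19.0 ± 2.08 CPM at lead 210 and 18.8 ± 1.51 CPM at lead 630, log2 fold changes of 0.73 ± 0.10 (adjusted p = 0.000314) and 0.70 ± 0.10 (adjusted p = 0.000353). slc2a2.S, the glucose transporter GLUT2 of beta cells, liver and intestine, went from 2.74 ± 0.442 CPM to 6.62 ± 1.86 and 5.13 ± 1.14 CPM, log2 fold changes of 1.24 ± 0.20 (adjusted p = 0.00110) and 0.87 ± 0.20 (adjusted p = 0.0241). The call of slc2a2.S at lead 630 was lost without any one of 6 libraries, with adjusted p up to 0.0697: control A, B, D or E, or lead 630 A or C. Its homeolog slc2a2.L, named after its values were seen, had far higher levels and was not called. It was at 40.0 ± 3.99 CPM in controls, 42.7 ± 2.61 CPM at lead 210 and 42.5 ± 4.32 CPM at lead 630. The log2 fold change of slc2a2.L was 0.09 ± 0.08 at each level (edgeR adjusted p = 0.688 at lead 210 and 0.723 at lead 630). Of the rows not called, gck.S, the homeolog of gck.L, had a log2 fold change of 1.06 ± 0.34 at lead 630 (unadjusted p = 0.00522, edgeR adjusted p = 0.130). At lead 210 that of gck.S was 0.93 ± 0.34 (edgeR adjusted p = 0.228), from a control mean of 0.948 CPM. The row slc30a8.L, the zinc transporter of insulin granules, had log2 fold changes of -0.38 ± 0.14 at lead 630 (unadjusted p = 0.0106, edgeR adjusted p = 0.186) and -0.19 ± 0.13 at lead 210. g6pc1.1.S (g6pc2.S in the authors' table), a glucose-6-phosphatase, had -0.49 ± 0.23 and -0.44 ± 0.23 (adjusted p = 0.396 and 0.455). It also counts among the rows of insulin-responsive metabolism below, so the 2 lists overlap. The rows gck.S, slc30a8.L and g6pc1.1.S were named after their values were seen. Insulin itself was at or under the floor in 13 of the 15 libraries, and the called genes gck.L and slc2a2.S are also used outside the pancreas.

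Of 21 rows of insulin-responsive metabolism tested, 1 was called higher at each level and 0 lower. Over all genes tested 1.98% were called higher at lead 630 and 1.76% at lead 210. At an unadjusted p under 0.05 there were 7 of 21 at lead 630 and 6 at lead 210, against 12.9% of all genes at each level. The list's median was -0.06 at lead 630, with 8 of 21 estimates positive, and -0.02 at lead 210, with 10 of 21. igfbp1.S (Entrez 398818, named igfbp1.L by the authors), a binding protein of insulin-like growth factors that insulin lowers in mammalian liver, was at 47.0 ± 9.92 CPM in controls, 82.4 ± 12.1 CPM at lead 210 and 88.9 ± 8.83 CPM at lead 630. Its log2 fold changes were 0.81 ± 0.13 (adjusted p = 0.00147) and 0.91 ± 0.13 (adjusted p = 0.000348), and it was called without each library in turn. Of 10 exocrine pancreas rows tested, 1 was called at lead 630, against 2.28% of all genes tested, and 0 at lead 210. It was gp2.L, a zymogen granule membrane protein (0.75 ± 0.19, adjusted p = 0.0437). The call was lost without 7 of the 10 libraries in turn, namely control A, B and C and lead 630 A, B, C and E. With all libraries in the fit, 9 of 10 exocrine rows had an unadjusted p under 0.05 at each level, against 12.9% of all genes tested. Control B held 82.3% of all counts of the exocrine list, and this number of rows is not given without that library. It is therefore not read as an effect of lead. The median log2 fold change of the exocrine rows at lead 630 was -3.52 with control B and 0.59 without it, and at lead 210 it was -4.09 and 0.46.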

How the data were processed

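Each pool gave 250 ng of total RNA, from which poly(A) transcripts were taken into directional libraries, per the labels' protocols. Trim Galore, HISAT2, kallisto and edgeR are named in the submitters' processing notes. How reads were assigned to genes, on which strand and in which genome build, is not given in the sources used. Values of homeologs and other related copies are therefore uncertain. The authors deposited raw counts per Entrez gene, and comparison tables holding log2 fold changes, log2 mean CPM, a likelihood-ratio score, p-values and adjusted p-values. RefSeq symbols (assembly Xenopus_laevis_v10.1) matched 33597 identifiers.

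After filterByExpr and TMM scaling (factors 0.977 to 1.03), 1 quasi-likelihood model of group was fitted to all 15 libraries (edgeR 4.0.16, R 4.3.3). The biological coefficient of variation was 0.142. The fit was also run on counts simulated from its own estimated spread, with planted changes and no outlying pool. That run does not test how the fit handles a pool such as control B. Alternatives used other scalings and filters, DESeq2 1.42.0, limma-voom (limma 3.58.1), fits of 2 groups, summed homeologs, a replicate block and left-out libraries. The floor covers counting error only. No library was a duplicate (chi-square per gene 3.78 to 14.8 over 30 pairs within groups and 3.40 to 25.5 over 75 pairs across groups).

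Members and lists were chosen with earlier results of these data known. All hormone rows are named, with up to 4 called rows of each list by p and the 3 genes most like the main ins and gcg rows by Pearson r among genes of mean CPM of at least 1 (log2 CPM, prior count 2).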

Additional observations from a re-analysis of the deposited data

Results flagged for a closer look

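Of 57 sets of 5 libraries (the 18 hormone rows and the summed exocrine list in each group), 6 held a library far from the others. The set of ins.S at lead 210 was at 0 in every library and could not be examined. Chance alone marks about 1 set in 20 where values are normally distributed. Insulin counts mostly at 0 and the skewed exocrine sums are not, so that rate does not hold for them. In control B, ins.S stood at 2.77 CPM against 0 to 0.162 CPM in the other controls, ins.L at 0.497 CPM against 0, and the summed exocrine pancreas list at 2655 CPM against 11.4 to 41.9 CPM. In lead 630 E, ins.S stood at 0.663 CPM against 0 to 0.121 CPM. The exocrine sum of lead 210 C was 80.9 CPM against 21.8 to 30.2 CPM in the rest of that group, and ins.S had no count there. The pyy.L level of lead 630 A was 8.88 CPM against 4.07 to 4.84 CPM in the other lead 630 libraries. No cause of these values was tested.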

How the results depend on the processing

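The count of hormone rows called with the further copies, 1 at each lead level, became 0 at lead 630 in the fit on 2 groups alone and with limma-voom, and ran from 0 to 1 over the left-out libraries at either level, pyy.L being the row lost. With the likelihood-ratio test over the genes of the deposited tables, chosen after seeing the data, it became 2 at lead 210 (pyy.L and ins.S), and among the 9 rows that carry a member's name it went from 0 to 1 (ins.S). Over the left-out libraries the log2 fold change of pyy.L ran from 0.75 to 1.09 at lead 630 and from 0.95 to 1.21 at lead 210. The leave-one-out fits on summed pyy.L and pyy.S, and the correlations without control B, were also chosen after seeing the data. With the replicate letter as a block the hormone counts were 1, 1 and 0 for lead 630, lead 210 and the 2 levels against each other, and over all genes 748 against 617 were called at lead 630 and 691 against 515 at lead 210. The letters were not taken to pair the libraries: the correlation of same-letter deviations ran from -0.12 to 0.31 and was over 0.1 in 8 of 15 pairs. Its median was 0.12, against -0.02 for other letters, and 6 of 15 libraries correlated best with their own letter, which is a hint from the data and not from the design. No called result reversed. Among the gene lists, DESeq2 called 4 and 3 rows of insulin-responsive metabolism at lead 630 and lead 210 where 1 was called at each, 2 enterocyte and 2 exocrine rows at lead 630 where 1 of each was called, and 6 enterocyte rows at lead 210 where 4 were called, and limma-voom called 3 insulin-responsive rows and 1 beta cell row at lead 630. DESeq2 also called more of all genes tested: 3.37% at lead 630 and 2.89% at lead 210, against 2.28% and 1.90% in the main fit. With limma-voom 2.31% of all genes were called at lead 630. Low counts limit ins.L, ins.S, gast.L and gast.S, which lie near the floor.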
